A study of Homo sapiens with 12 samples.

Results

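Iron handling by HepG2 cells, which come from a liver tumour and still make many hepatocyte products, was examined through 9 genes of iron hormone production, uptake, storage and export, out of 35810 genes summed from the transcript tables. The genes were HAMP, BMP6, TFR2, TFRC, SLC11A2, FTH1, FTL, SLC40A1 and IREB2. They were taken by name as iron genes, with earlier results of these data known. Cells carrying a CRISPR/Cas9 knockout of ARID1B (ARID1B-KO) and wild-type (WT) cells were each given 5 µM sorafenib or the DMSO vehicle (0.1% v/v) for 48 h, which makes 4 groups of 3 biological replicates: ARID1B-KO with sorafenib, ARID1B-KO with DMSO, WT with sorafenib and WT with DMSO. ARID1B belongs to the BAF complex, which moves nucleosomes with energy from ATP. Sorafenib, a drug for liver cancer, blocks RAF kinases and several growth factor receptors. The number of knockout clones is not stated in the labels, nor is whether replicates were separate cultures, so p-values measure the spread between these libraries. Cells grew in medium with serum, and no label reports an iron treatment or an iron measurement.

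Hepcidin, the product of HAMP, is the hormone by which the liver sets iron in the blood: it binds the exporter ferroportin (SLC40A1) on gut cells, macrophages and hepatocytes and causes its breakdown. Hepatocytes raise HAMP when BMP6 and related ligands signal through SMAD proteins, with TFR2 and HFE as sensors of transferrin-bound iron, and when interleukin-6 signals through STAT3. Inside the cell, the iron regulatory proteins (one is the product of IREB2) bind iron-responsive elements, short hairpins in mRNA. Binding in the 5′ UTR blocks translation, as for both ferritins and ferroportin, and binding in the 3′ UTR of TFRC protects the mRNA from decay.

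The hairpins are shown here because they set what an mRNA level can tell about these genes. They were found by searching GENCODE release 44 transcripts on GRCh38 for a 6-base loop CAGTGN with a stem of 5 pairs (GT pairs allowed) and an unpaired C 6 bases before the loop. A match of this kind was present in 1.53% of 19676 protein-coding genes, and 11.54% held one when 1 unpaired position was allowed. Each is printed 5′ to 3′ on the strand of the gene with the loop in capitals. The FTH1 element lies in the 5′ UTR at chr11:61967573-61967602 (minus strand), that of FTL in the 5′ UTR at chr19:48965335-48965364 (plus strand), and that of SLC40A1 in the 5′ UTR at chr2:189580660-189580689 (minus strand).
FTH1 5′ UTR: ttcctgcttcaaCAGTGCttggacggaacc
FTL 5′ UTR: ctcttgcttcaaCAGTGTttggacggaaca
SLC40A1 5′ UTR: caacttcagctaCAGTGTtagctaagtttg

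TFRC held 4 matches in its 3′ UTR, all on the minus strand of chromosome 3, given in transcript order from chr3:196050978-196051007 through chr3:196050574-196050603 and chr3:196050509-196050538 to chr3:196050462-196050491. With 1 unpaired position allowed, SLC11A2 held a match in the 3′ UTR of part of its transcripts, at chr12:50988268-50988297 (minus strand), and IREB2 held one in the 3′ UTR of its transcript IREB2-201, at chr15:78500969-78500998 (plus strand). The TFRC elements are known to bear on mRNA stability rather than on translation, and the SLC11A2 and IREB2 matches are given as descriptions of sequence.
TFRC 3′ UTR, first: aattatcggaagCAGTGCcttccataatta
TFRC 3′ UTR, next: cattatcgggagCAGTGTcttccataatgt
TFRC 3′ UTR, next: ctgtatcggagaCAGTGAtctccatatgtt
TFRC 3′ UTR, last: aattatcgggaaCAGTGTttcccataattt
SLC11A2 3′ UTR: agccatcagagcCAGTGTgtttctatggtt
IREB2 3′ UTR: catttgctttcaCAGTGAtgagtgagagga

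The promoter of HAMP is printed because HAMP had the largest fold change of the 8 tested genes in all 4 comparisons below. The 216 bases shown (RefSeq promoter table, GRCh38.p14, chr19:35282278-35282493, plus strand) end before the first annotated exon in the window. Capitals mark GGCGCC, the core letters of the BMP-responsive element, starting 105 bases before the RefSeq start site, and a match to the STAT pattern TTCNNNGAA, starting 93 bases before it. Over both strands, 16.4% of 35116 promoter windows of 250 bases held GGCGCC, 6.6% held TTCNNNGAA and 0.5% held both, and the motifs do not overlap here. The patterns were picked for the known control of HAMP by BMP and STAT3 signals, so these shares do not measure how unusual their presence is. The table matched 7 of the 9 genes, and the TFRC window also held GGCGCC, starting 201 bases before its start site.
HAMP promoter: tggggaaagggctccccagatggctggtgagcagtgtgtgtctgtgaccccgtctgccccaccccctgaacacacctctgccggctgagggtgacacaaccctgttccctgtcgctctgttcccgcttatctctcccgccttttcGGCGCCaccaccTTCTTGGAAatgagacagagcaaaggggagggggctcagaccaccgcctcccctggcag

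Libraries held 19739582 to 29398257 estimated counts. ARID1B transcript was reduced but present in the knockout, at 25.9 to 35.6 CPM (counts scaled to a common library size) over the 6 ARID1B-KO libraries against 58.4 to 69.1 CPM over the 6 WT libraries (log2 fold change -1.19 ± 0.11 in DMSO and -1.18 ± 0.11 in sorafenib, SE). All 8 hepatocyte markers were measured, led by ALB, and their summed level was 103700 to 161900 CPM in ARID1B-KO with sorafenib, 76520 to 87010 in ARID1B-KO with DMSO, 80440 to 86160 in WT with sorafenib and 64020 to 68290 in WT with DMSO. This sum was highest in the group where HAMP was highest, and its part in the results below was not tested. ALB, at a mean of 88910 CPM in ARID1B-KO with sorafenib and 32590 in WT with DMSO, made up the largest share of it, and the markers did not all move alike. APOA2 had a mean of 961 CPM in ARID1B-KO with sorafenib and 2709 in WT with DMSO, and TTR 189 and 359 CPM in the same groups. FGB had 155 CPM in ARID1B-KO with sorafenib, 49.9 in ARID1B-KO with DMSO, 2522 in WT with sorafenib and 773 in WT with DMSO. The leukocyte and macrophage markers PTPRC, MARCO and C1QA, the sinusoidal endothelial markers STAB2 and CLEC4G, and the fibroblast markers COL1A2 and DCN were at 0 in every library. Of the 8 macrophage markers 3 passed the filter, led by LYZ, which had a mean of 506 CPM in ARID1B-KO with sorafenib, 2018 in ARID1B-KO with DMSO, 862 in WT with sorafenib and 3868 in WT with DMSO. The 6 endothelial markers summed to 9.04 to 14.8 CPM in ARID1B-KO and 1.57 to 4.35 CPM in WT, and the 6 fibroblast and stellate markers, led by ACTA2, to 70.8 to 85.8 CPM in ARID1B-KO with sorafenib, 40.15 to 42.5 in ARID1B-KO with DMSO, 63.3 to 67.65 in WT with sorafenib and 39.6 to 47.85 in WT with DMSO. Of the 6 erythroid markers only HBA1 was seen, at up to 1.39 CPM summed.

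Values below are CPM after TMM normalization, with log2 fold changes ± SE and adjusted p from edgeR's quasi-likelihood test with Benjamini-Hochberg adjustment over the 12821 genes tested. Genes counted as called had an adjusted p under 0.05. Of the 9 genes, 8 passed the filter on low counts. BMP6, the main iron-responsive ligand for hepcidin, did not: its rounded counts were 2, 1 and 4 in ARID1B-KO with sorafenib, 2, 2 and 3 in ARID1B-KO with DMSO, 0, 4 and 0 in WT with sorafenib, and 6, 0 and 0 in WT with DMSO. In mouse liver BMP6 is made mainly by endothelial cells, and no difference in it was detectable at this depth.

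Sorafenib called 5 of the 8 tested genes in ARID1B-KO, all higher, where 46.7% of all tested genes were called (23.0% higher and 23.7% lower). In WT it called 7 of 8, of which 6 were higher and 1 lower, against a background of 35.4% (17.5% higher and 18.0% lower). ARID1B-KO differed from WT at 3 of 8 genes in DMSO, 1 higher and 2 lower, where 27.8% of all genes were called (14.3% higher and 13.5% lower). In sorafenib the genotypes differed at 4 of 8, 2 higher and 2 lower, against 27.0% (13.2% higher and 13.8% lower). These counts are set beside their backgrounds as a description, without a test of the list. The median log2 fold change of the 8 genes was 0.58 for sorafenib in ARID1B-KO and 0.43 for sorafenib in WT, beside 0.01 and -0.01 over all tested genes. Between genotypes it was 0.14 in DMSO and 0.11 in sorafenib. Without 1 library the count of called genes was 3 to 7 for sorafenib in WT, lowest without replicate 2 of WT with DMSO or replicate 3 of WT with sorafenib, and 4 without replicate 3 of WT with DMSO or replicate 1 of WT with sorafenib. Between genotypes in sorafenib it was 2 to 5, lowest without replicate 1 or 3 of WT or replicate 2 of ARID1B-KO, each with sorafenib. The comparisons share groups and are not independent of each other.

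The difference between the sorafenib response in ARID1B-KO and that in WT was tested as an interaction. None of the 8 genes was called by edgeR, where 0.835% of all genes were, and 1 of them, SLC40A1, had an unadjusted p under 0.05. DESeq2 also called 0 of the 8, with 1 under 0.05 unadjusted.

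**Figure D1:**
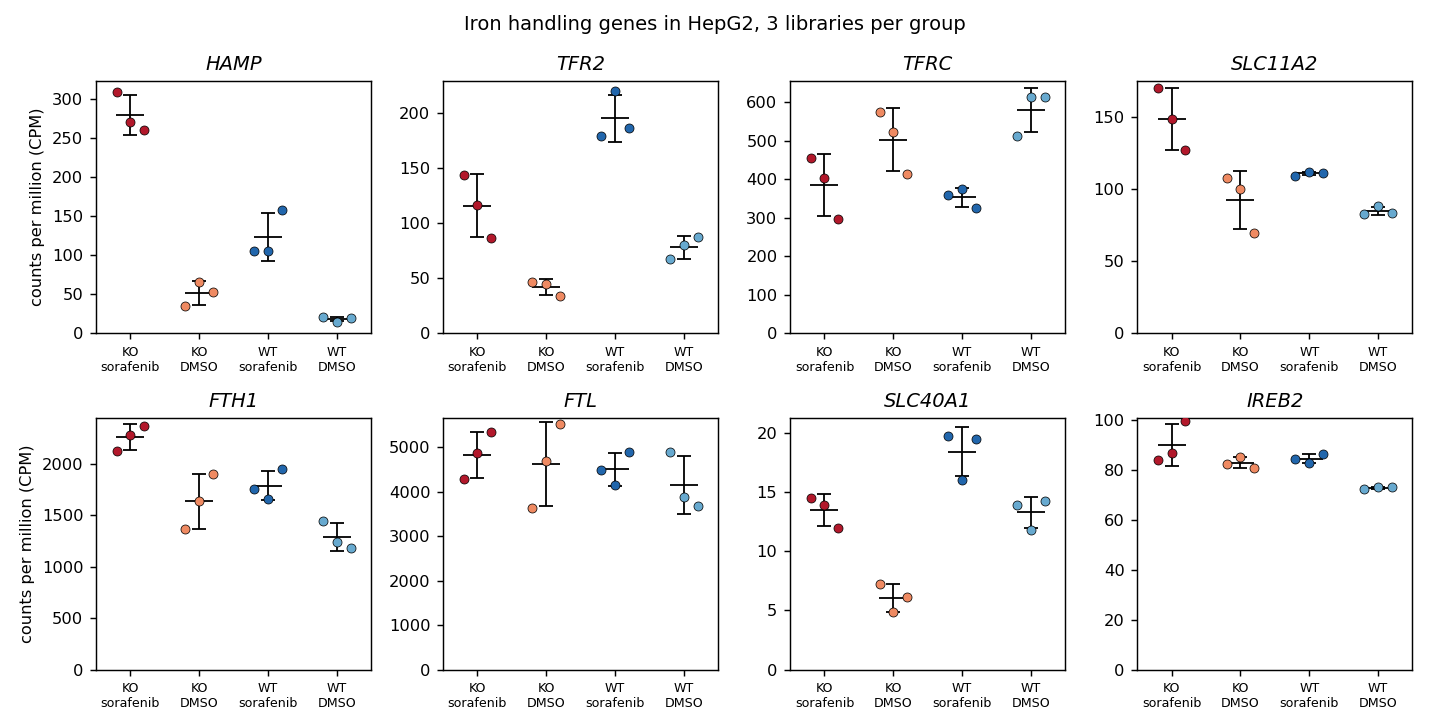
Level of each of the 8 tested iron genes in CPM (vertical axes, from 0) in the 3 libraries of each group; points are libraries, bars the mean ± SD. HAMP is at 259 to 308 CPM in ARID1B-KO with sorafenib and at 14.65 to 20.3 CPM in WT with DMSO, whereas the FTL points of the 4 groups overlap.

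Among the genes of iron sensing and hormone output, HAMP (ENSG00000105697.9, chromosome 19, 35280716 to 35285143, plus strand) gave the widest separation. It had 308, 269.5 and 259 CPM in ARID1B-KO with sorafenib, against 34.5, 65.0 and 52.8 CPM in ARID1B-KO with DMSO. In WT it had 105, 105 and 158 CPM with sorafenib, against 20.3, 14.65 and 19.1 CPM with DMSO. The 4 groups did not overlap anywhere: ARID1B-KO with sorafenib was highest, then WT with sorafenib, then ARID1B-KO with DMSO, then WT with DMSO.

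HAMP rose with sorafenib by 2.46 ± 0.23 in ARID1B-KO (edgeR adjusted p = 4.62e-06), a 5.49-fold difference, and by 2.77 ± 0.23 in WT (edgeR adjusted p = 3.86e-06). ARID1B-KO stood above WT by 1.49 ± 0.23 in DMSO (edgeR adjusted p = 5.34e-04) and by 1.18 ± 0.22 in sorafenib (edgeR adjusted p = 0.00182). The interaction was -0.31 ± 0.31 (edgeR adjusted p = 0.697), so a difference between the responses of the genotypes was not detected. These 4 calls held when any library was left out. The transcript HAMP-201 made up 97.0% to 98.7% of HAMP TPM in every library. Because bulk RNA was measured, more cells making HAMP and more HAMP RNA per cell cannot be told apart.

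TFR2 (ENSG00000106327.13, chromosome 7, minus strand) encodes the second transferrin receptor, which in hepatocytes senses iron-loaded transferrin and favours hepcidin production. It had 144, 117 and 86.7 CPM in ARID1B-KO with sorafenib, against 46.7, 44.9 and 34.0 CPM in ARID1B-KO with DMSO. WT libraries had 179, 220.0 and 187 CPM with sorafenib, against 66.9, 79.7 and 87.6 CPM with DMSO. The drug and the genotype thus went in opposite directions for TFR2, and no pair of groups compared overlapped.

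TFR2 rose with sorafenib by 1.47 ± 0.18 in ARID1B-KO (edgeR adjusted p = 3.37e-05) and by 1.32 ± 0.18 in WT (edgeR adjusted p = 1.09e-04). It was lower in ARID1B-KO than in WT, by -0.90 ± 0.18 in DMSO (edgeR adjusted p = 0.0027) and by -0.75 ± 0.17 in sorafenib (edgeR adjusted p = 0.007), where HAMP was higher. Salmon divided TFR2 among several annotated transcripts, part of them with a retained intron, so the gene level is a sum over full-length and partial models. The full-length coding model TFR2-201 was listed at 0 in all 6 WT libraries and held 22.1%, 16.3% and 28.4% of TFR2 TPM in ARID1B-KO with sorafenib and 34.4%, 0% and 28.1% in ARID1B-KO with DMSO.

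Of the uptake genes, TFRC (ENSG00000072274.14, chromosome 3, minus strand) encodes the main receptor through which cells take up transferrin-bound iron. It had 455, 404 and 296 CPM in ARID1B-KO with sorafenib, against 573, 522 and 413 CPM in ARID1B-KO with DMSO. In WT it had 358, 374 and 325 CPM with sorafenib, against 513, 613 and 613 CPM with DMSO. The treated and untreated groups overlapped in ARID1B-KO and did not overlap in WT.

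TFRC fell with sorafenib in WT, by -0.72 ± 0.16 (edgeR adjusted p = 0.00355). In ARID1B-KO the log2 fold change was -0.38 ± 0.16 (edgeR adjusted p = 0.0632), which did not pass; it passed without replicate 3 of ARID1B-KO with DMSO (-0.49, edgeR adjusted p = 0.0309) or without replicate 1 of ARID1B-KO with sorafenib (-0.51, edgeR adjusted p = 0.0313). The interaction of 0.33 ± 0.22 (edgeR adjusted p = 0.517) did not show a difference between genotypes. ARID1B-KO against WT gave -0.21 ± 0.16 in DMSO and 0.13 ± 0.16 in sorafenib, neither of them called.

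Within TFRC, the genotypes differed in which annotated transcript the reads were assigned to, a feature chosen after its values were seen. TFRC-203 lacks exon 3 of the reference transcript TFRC-201, 202 bases at chromosome 3, 196075159 to 196075360, and its annotated start codon lies in the exon that follows, which shortens the coding sequence to 2037 bases from the 2280 bases of TFRC-201. TFRC is a membrane protein whose N terminus lies in the cytoplasm, and the annotation of TFRC-203 removes the start of the protein. TFRC-203 held 17.4%, 47.0% and 60.0% of TFRC TPM in ARID1B-KO with sorafenib, against 6.44%, 0% and 0% in WT with sorafenib. With DMSO it held 30.0%, 17.8% and 29.9% in ARID1B-KO, against 0%, 1.41% and 0% in WT.

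Every ARID1B-KO library was above every WT library in this share, by 39.3 percentage points on average in sorafenib and 25.4 in DMSO. A two-sided exact permutation test gave p = 0.1 in each treatment, which is the smallest p that 3 against 3 libraries can give. The share was chosen with this full separation already seen, so the p follows from the choice and adds no support. With estimated counts in place of TPM the differences were 39.2 and 25.2 percentage points. This is no separate check, since counts and TPM come from the same assignment and the transcripts are of similar length (5012 and 4814 bases). The files hold no reads across splice junctions, so the share is Salmon's assignment. The 4 hairpins printed above are in TFRC-201 and TFRC-203 alike: the transcripts that carry them made up at least 99.0% of TFRC TPM in every library.

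**Figure D2:**
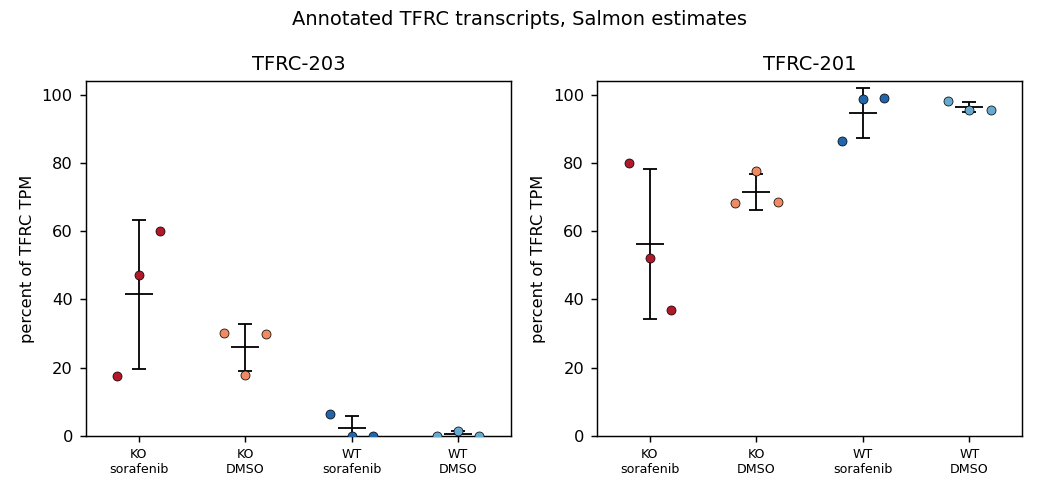
Share of TFRC TPM (percent, vertical axes from 0) assigned to TFRC-203, which lacks exon 3, and to the reference transcript TFRC-201 in each library; points are libraries, bars the mean ± SD of 3. TFRC-203 lies between 17.4% and 60.0% in the ARID1B-KO libraries and at or below 6.44% in the WT libraries.

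SLC11A2 (ENSG00000110911.17, chromosome 12, minus strand) encodes DMT1, the transporter that moves ferrous iron out of endosomes after transferrin uptake. It had 170.0, 149 and 127 CPM in ARID1B-KO with sorafenib, against 108, 99.8 and 69.4 CPM in ARID1B-KO with DMSO. WT libraries had 109.5, 112 and 111.5 CPM with sorafenib, against 82.8, 88.2 and 83.5 CPM with DMSO. Both drug comparisons were free of overlap, and in DMSO the genotypes overlapped.

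SLC11A2 rose with sorafenib by 0.69 ± 0.14 in ARID1B-KO (edgeR adjusted p = 0.00151). The differences of 0.39 ± 0.14 for sorafenib in WT (edgeR adjusted p = 0.0483) and of 0.42 ± 0.14 between genotypes in sorafenib (edgeR adjusted p = 0.04) passed narrowly. The call in WT was lost in 8 of 12 fits without a library, at 0.37 to 0.41 (each of the 6 WT libraries, and replicate 2 of either ARID1B-KO group). The call between genotypes was also lost in 8 of 12, at 0.32 to 0.43 (each library of WT with sorafenib, replicates 2 and 3 of WT with DMSO, replicate 2 of ARID1B-KO with DMSO, and replicates 1 and 2 of ARID1B-KO with sorafenib). Transcripts carrying the SLC11A2 hairpin printed above held 82.7%, 81.2% and 84.6% of SLC11A2 TPM in ARID1B-KO with sorafenib, against 77.3%, 72.6% and 72.1% in WT with sorafenib. With DMSO they held 81.6%, 80.4% and 75.1% in ARID1B-KO, against 70.5%, 74.0% and 72.7% in WT. The genotypes did not overlap in either treatment, a feature chosen after its values were seen. Among coding transcripts alone the share was 74.4%, 71.4% and 74.3% in ARID1B-KO with sorafenib, against 69.9%, 57.0% and 61.7% in WT with sorafenib. With DMSO it was 68.0%, 74.3% and 50.4% in ARID1B-KO, against 66.8%, 69.1% and 64.7% in WT, so that the DMSO groups overlapped there and ARID1B-KO had the lower mean (64.2% and 66.9%). A large part of this share was SLC11A2-222, annotated with a retained intron, at a mean of 41.2% in ARID1B-KO with sorafenib and 36.0% in WT with sorafenib.

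Of the ferritin genes, which encode the subunits of the iron storage shell, FTH1 (ENSG00000167996.16, chromosome 11, minus strand) encodes the heavy chain that oxidises iron on entry. It had 2123, 2284 and 2372 CPM in ARID1B-KO with sorafenib, against 1370.0, 1642 and 1904 CPM in ARID1B-KO with DMSO. WT libraries had 1757, 1663 and 1946 CPM with sorafenib, against 1441, 1241 and 1179 CPM with DMSO. Neither drug comparison overlapped.

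FTH1 rose with sorafenib by 0.46 ± 0.14 in ARID1B-KO (edgeR adjusted p = 0.0132) and by 0.47 ± 0.14 in WT (edgeR adjusted p = 0.0152). The call in WT was lost without replicate 2 or 3 of WT with DMSO (edgeR adjusted p = 0.058 and 0.0627) or without replicate 3 of WT with sorafenib (edgeR adjusted p = 0.0675). For ARID1B-KO against WT the DMSO libraries gave 0.35 ± 0.14 (edgeR adjusted p = 0.0731) and the sorafenib libraries 0.34 ± 0.14 (edgeR adjusted p = 0.0831), neither of them called. By DESeq2 both genotype differences passed, at adjusted p = 0.0171 and 0.0177, and they also passed with an offset for transcript length (adjusted p = 0.042 and 0.0439). The share of FTH1 TPM assigned to FTH1-212 was 80.0%, 87.1% and 76.5% in ARID1B-KO with sorafenib, against 67.2%, 63.1% and 73.1% in WT with sorafenib, without overlap. It is Salmon's assignment and a feature chosen after its values were seen. In sorafenib the FTH1-201 share did overlap between genotypes, at 6.27%, 9.79% and 20.5% in ARID1B-KO against 29.0%, 17.9% and 15.6% in WT.

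FTL (ENSG00000087086.15, chromosome 19, plus strand), which encodes the light chain that aids mineral formation, had 4279, 4863 and 5328 CPM in ARID1B-KO with sorafenib, against 3630.0, 4695 and 5513 CPM in ARID1B-KO with DMSO. WT libraries had 4481, 4148 and 4884 CPM with sorafenib, against 4882, 3880.0 and 3685 CPM with DMSO. All groups overlapped. None of the differences of FTL passed the test: they were 0.06 and 0.12 for sorafenib in ARID1B-KO and WT, and 0.15 and 0.10 between genotypes in DMSO and sorafenib, each ± 0.17. The 25 FTH1 and 16 FTL pseudogenes in the tables took up to 0.057% and 0.027% of the reads of their parent genes, and adding them changed no call.

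SLC40A1 (ENSG00000138449.11, chromosome 2, minus strand) encodes ferroportin, the iron exporter that hepcidin removes from the cell surface. It was the lowest of the tested genes, with 242 to 345 counts in ARID1B-KO with sorafenib and 109 to 152 in ARID1B-KO with DMSO. Its level was 14.5, 13.9 and 11.95 CPM in ARID1B-KO with sorafenib, against 7.23, 4.90 and 6.11 CPM in ARID1B-KO with DMSO. In WT it was 19.7, 16.0 and 19.5 CPM with sorafenib, against 13.9, 11.8 and 14.2 CPM with DMSO. ARID1B-KO with DMSO stood below every other group, and ARID1B-KO with sorafenib overlapped WT with DMSO.

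SLC40A1 rose with sorafenib by 1.15 ± 0.15 in ARID1B-KO (edgeR adjusted p = 5.49e-05) and by 0.47 ± 0.15 in WT (edgeR adjusted p = 0.0237). It was lower in ARID1B-KO than in WT by -1.13 ± 0.15 in DMSO (edgeR adjusted p = 1.44e-04) and by -0.45 ± 0.15 in sorafenib (edgeR adjusted p = 0.0358). The response of ARID1B-KO exceeded that of WT by 0.68 ± 0.21, with an unadjusted p of 0.0065 and an edgeR adjusted p of 0.14, which did not pass; DESeq2 did not call it either. Both smaller calls were lost with an offset for transcript length (adjusted p = 0.0711 for sorafenib in WT and 0.284 between genotypes in sorafenib). Left-out libraries ended the call of sorafenib in WT in 3 of 12 fits (replicate 2 of WT with DMSO, replicates 1 and 3 of WT with sorafenib; edgeR adjusted p up to 0.0938). They ended the call between genotypes in sorafenib in 4 of 12 (replicates 1 and 3 of WT, 2 and 3 of ARID1B-KO, all with sorafenib; edgeR adjusted p up to 0.116).

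IREB2 (ENSG00000136381.13, chromosome 15, plus strand) encodes iron regulatory protein 2, the RNA-binding protein that binds iron-responsive elements. It varied little, at 83.8, 86.5 and 99.45 CPM in ARID1B-KO with sorafenib, against 82.1, 85.2 and 80.9 CPM in ARID1B-KO with DMSO. In WT it was at 84.2, 82.7 and 86.45 CPM with sorafenib, against 72.4, 73.1 and 72.9 CPM with DMSO. The group WT with DMSO lay below all others. Only sorafenib in WT passed the test among the 4 comparisons of IREB2, at 0.21 ± 0.07 (edgeR adjusted p = 0.0401), and this call was lost in 7 of 12 fits that left out a library (each of the 6 WT libraries, and replicate 2 of ARID1B-KO with sorafenib), with adjusted p up to 0.116. It was also lost with an offset for transcript length (0.15, edgeR adjusted p = 0.427) and without the filter on low counts (edgeR adjusted p = 0.0708). IREB2 is known to be controlled mainly at the protein level, by iron-dependent breakdown, which these data do not measure.

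**Figure D3:**
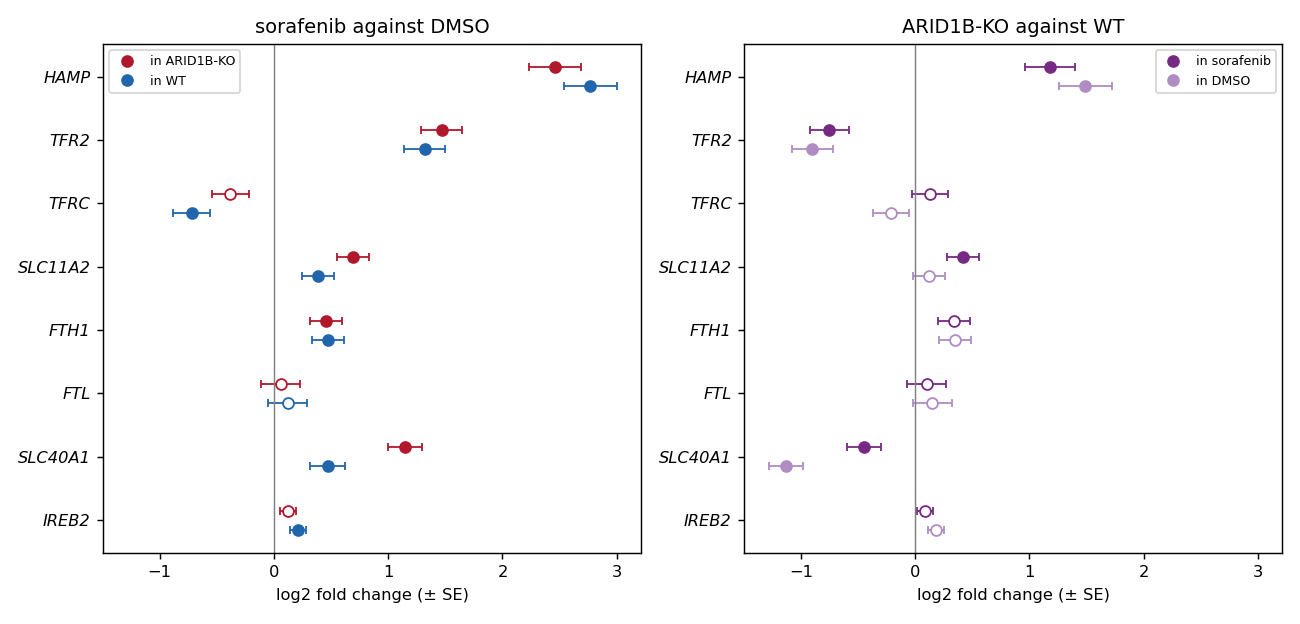
Log2 fold change ± SE of each tested iron gene (horizontal axes) for sorafenib against DMSO within a genotype and for ARID1B-KO against WT within a treatment; filled points were called by edgeR at an adjusted p under 0.05. HAMP lies to the right of 0 in all 4 comparisons, and TFR2 and SLC40A1 lie to the right for the drug and to the left for the knockout.

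Levels were ordered between genes in TPM, the deposited unit that accounts for transcript length. In WT with DMSO the mean order was FTL (4905 TPM), FTH1 (2061), TFRC (216), HAMP (76.55), SLC11A2 (40.7), IREB2 (26.6), TFR2 (17.7), SLC40A1 (5.77) and BMP6 (0.00852), and no neighbours in that order overlapped between libraries. In ARID1B-KO with sorafenib HAMP stood next after the ferritins at 1002 ± 29.8 TPM (SD, n = 3), above TFRC at 143 ± 18.7 TPM, and the ranges of IREB2 (27.2 to 41.45 TPM) and TFR2 (19.2 to 32.2 TPM) overlapped. In ARID1B-KO with DMSO the ranges of HAMP (150 to 318 TPM) and TFRC (177 to 218 TPM) overlapped.

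Ratios between paired genes show how these shifts combine within a library. HAMP per SLC40A1, hormone over its target, was 177, 135.5 and 167 in ARID1B-KO with sorafenib, against 48.3, 137 and 85.5 in ARID1B-KO with DMSO. In WT it was 52.0, 63.1 and 77.5 with sorafenib, against 14.5, 11.3 and 13.65 with DMSO. The WT groups were apart, while replicate 2 of ARID1B-KO with DMSO reached into the range of ARID1B-KO with sorafenib.

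TFRC per TFR2 was 4.88, 6.17 and 6.36 in ARID1B-KO with sorafenib, against 23.6, 22.5 and 20.8 in ARID1B-KO with DMSO. In WT it was 3.60, 2.92 and 2.91 with sorafenib, against 13.4, 12.4 and 11.3 with DMSO. All 4 groups were apart, with the lower ratio under the drug and the higher ratio in the knockout. FTH1 per FTL averaged 0.673 ± 0.0423 in ARID1B-KO with sorafenib and 0.498 ± 0.0368 in ARID1B-KO with DMSO (SD, n = 3 each). In WT it averaged 0.529 ± 0.0129 with sorafenib and 0.422 ± 0.0213 with DMSO (SD, n = 3 each), and within each genotype the drug and vehicle libraries did not overlap.

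**Figure D4:**
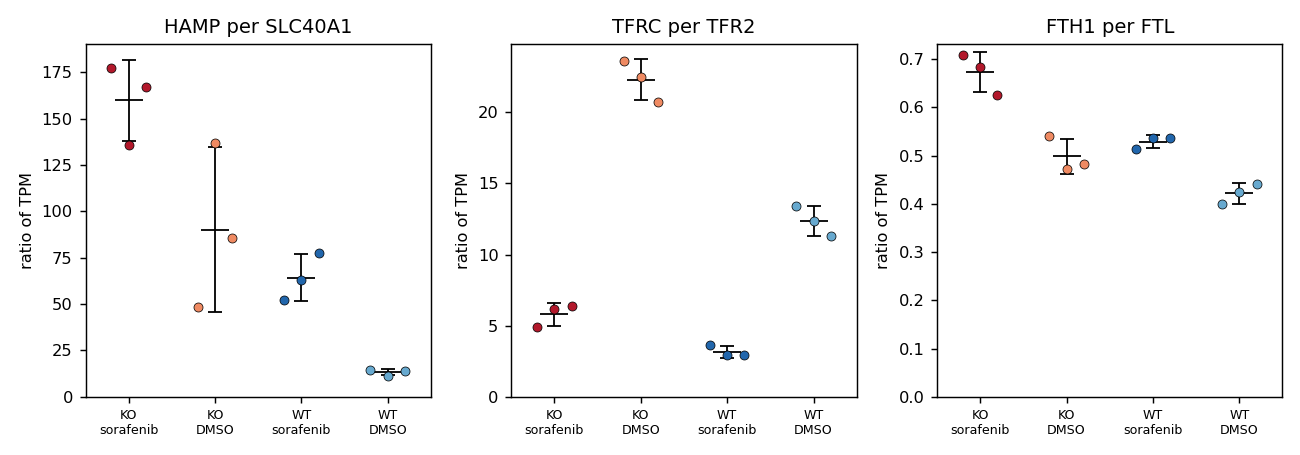
Ratio of TPM of HAMP to SLC40A1, of TFRC to TFR2 and of FTH1 to FTL (vertical axes, from 0) in each library; points are libraries, bars the mean ± SD of 3. TFRC per TFR2 is between 2.91 and 6.36 in the sorafenib libraries and between 11.3 and 23.6 in the DMSO libraries.

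The genes around HAMP were taken from a list of 19 known regulators of hepcidin, of which 16 were tested (BMP2, ERFE and HJV were too low). Sorafenib called 7 of 16 in ARID1B-KO (6 higher, 1 lower) and 5 of 16 in WT (4 higher, 1 lower), shares below the 46.7% and 35.4% of all genes called. ARID1B-KO against WT called 4 of 16 in DMSO (2 higher, 2 lower), below the 27.8% of all genes, and 8 of 16 in sorafenib (7 higher, 1 lower), above the 27.0%. The list's median log2 fold change was 0.06 and 0.09 for the drug in ARID1B-KO and WT, and 0.27 and 0.34 for the knockout in DMSO and sorafenib, beside medians of all genes between -0.01 and 0.01.

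TMPRSS6, the protease that cleaves the BMP co-receptor and lowers hepcidin, had 48.3, 39.35 and 29.5 CPM in ARID1B-KO with sorafenib, against 13.1, 17.0 and 11.9 CPM in ARID1B-KO with DMSO. It rose with the drug by 1.48 ± 0.18 in ARID1B-KO (edgeR adjusted p = 2.75e-05) and by 1.30 ± 0.18 in WT (edgeR adjusted p = 1.30e-04). FURIN, which cleaves prohepcidin and the BMP co-receptor, had 212, 235.5 and 183 CPM in ARID1B-KO with DMSO, against 66.4, 94.9 and 116.5 CPM in WT with DMSO. It was higher in the knockout by 1.18 ± 0.23 in DMSO (edgeR adjusted p = 0.00249) and by 1.26 ± 0.23 in sorafenib (edgeR adjusted p = 0.00174), and the drug gave it -0.19 ± 0.22 in ARID1B-KO and -0.26 ± 0.23 in WT.

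STAT3, through which interleukin-6 induces hepcidin, rose with the drug by 0.62 ± 0.08 in ARID1B-KO and by 0.80 ± 0.08 in WT, and was lower in the knockout by -0.47 ± 0.08 in DMSO and by -0.64 ± 0.08 in sorafenib. The STAT3 calls other than sorafenib in WT were lost with an offset for transcript length (adjusted p = 0.0773 for sorafenib in ARID1B-KO, 0.474 between genotypes in DMSO and 0.0678 in sorafenib). CEBPA, a liver transcription factor that activates the HAMP promoter, had 315, 292 and 296 CPM in ARID1B-KO with DMSO, against 152, 146 and 148 CPM in WT with DMSO. It was higher in the knockout by 1.02 ± 0.07 in DMSO (edgeR adjusted p = 8.83e-07) and by 0.33 ± 0.07 in sorafenib (edgeR adjusted p = 0.0049). HFE, the partner of TFR2 in iron sensing, rose with sorafenib in ARID1B-KO by 0.77 ± 0.24 (edgeR adjusted p = 0.0168), a call lost without replicate 3 of ARID1B-KO with DMSO or without replicate 1 or 2 of ARID1B-KO with sorafenib (edgeR adjusted p up to 0.061), and lost with an offset for transcript length (edgeR adjusted p = 0.0889).

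Targets of BMP and SMAD signalling, a list of 8 that were all tested, were higher in the knockout at 5 genes in DMSO and at 6 in sorafenib, with no called gene lower, against the backgrounds of 14.3% and 13.2% higher given above. The median of the list was 0.50 in DMSO and 0.71 in sorafenib. SMAD6, an inhibitory SMAD that BMP signals induce, had 20.25, 23.4 and 20.6 CPM in ARID1B-KO with DMSO, against 6.50, 7.82 and 9.26 CPM in WT with DMSO, a difference of 1.45 ± 0.17 (edgeR adjusted p = 4.04e-05). In sorafenib the difference was 1.11 ± 0.16 (edgeR adjusted p = 3.48e-04, and 0.0738 with an offset for transcript length).

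ID2, a transcription inhibitor induced by BMP, was higher in the knockout by 0.85 ± 0.16 in DMSO (edgeR adjusted p = 0.0016) and SMAD7, another inhibitory SMAD, by 0.50 ± 0.09 (edgeR adjusted p = 0.00147). ID1 and BAMBI were also called there at 0.50 each, and these calls were lost without replicate 2 of either genotype with DMSO, that of ID1 also without replicate 3 of either. Under sorafenib 2 of the 8 targets rose in ARID1B-KO, close to the 23.0% of all genes called higher there. In WT 2 rose and 1 fell, beside 17.5% of all genes called higher and 18.0% lower. Those that rose were ID2 (1.12 ± 0.16 in ARID1B-KO and 1.23 ± 0.16 in WT) and SMAD7 (0.64 ± 0.09 and 0.62 ± 0.09), and BAMBI, a decoy receptor, fell in WT (-0.47 ± 0.13, lost without replicate 3 of WT with DMSO or replicate 2 of WT with sorafenib). ID1, another target on the list, was at -0.13 ± 0.14 in ARID1B-KO and -0.20 ± 0.14 in WT under the drug, neither of them called. The part of BMP and SMAD signalling in the HAMP response was not tested.

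**Figure D5:**
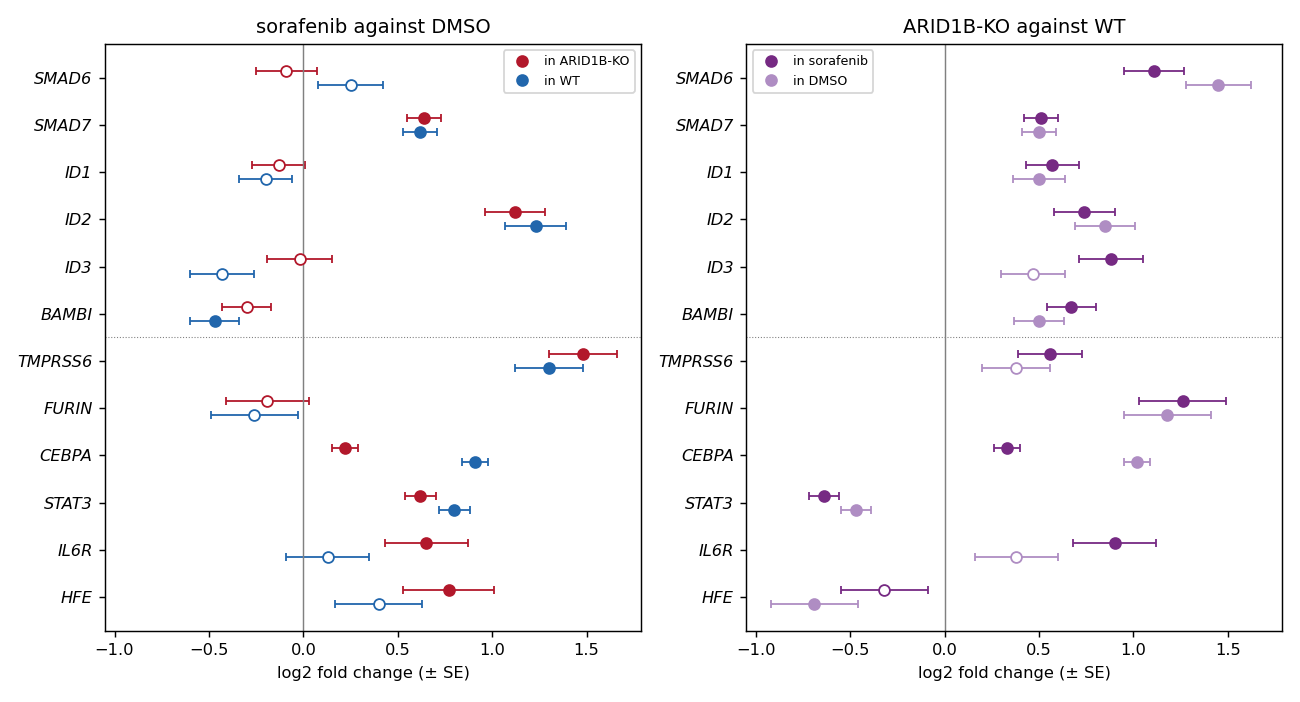
Log2 fold change ± SE (horizontal axes) of BMP-SMAD targets (above the dotted line) and of regulators of hepcidin (below it) for sorafenib against DMSO and for ARID1B-KO against WT; filled points were called by edgeR at an adjusted p under 0.05. The 6 targets shown are those of the 8 listed that were called higher in ARID1B-KO in sorafenib, so their place right of 0 there follows from the choice. They also lie to the right in DMSO, led by SMAD6 at 1.45, and ID2 and SMAD7 lie to the right for the drug.

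Genes that carry iron or haem in plasma were a list of 7 with 5 tested (TF, HPX, HP, AMBP and CP). Sorafenib called 4 of 5 in ARID1B-KO, all higher, and 4 of 5 in WT, 3 higher and 1 lower, beside 46.7% and 35.4% of all genes. ARID1B-KO against WT called 2 of 5 in each treatment, both lower, beside 13.5% of all genes called lower in DMSO and 13.8% in sorafenib. AMBP was called for sorafenib in ARID1B-KO (0.64 ± 0.15) but not in WT (0.35 ± 0.15, edgeR adjusted p = 0.0992). TF, which encodes transferrin, had 10730, 8705 and 7646 CPM in ARID1B-KO with sorafenib, against 4195, 4439 and 3461 CPM in ARID1B-KO with DMSO, and rose by 1.16 ± 0.15 there (edgeR adjusted p = 4.42e-05) and by 1.07 ± 0.15 in WT (edgeR adjusted p = 1.39e-04). HPX, the haem carrier hemopexin, rose by 1.66 ± 0.18 in ARID1B-KO and 1.95 ± 0.17 in WT. HP, the haemoglobin carrier haptoglobin, rose by 1.81 ± 0.18 and 2.10 ± 0.19, with the limit that HP shares reads with its near-identical neighbour HPR.

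CP, which encodes the ferroxidase ceruloplasmin that works with ferroportin in iron release, was lower in the knockout. It had 52.2, 47.8 and 43.0 CPM in ARID1B-KO with DMSO, against 174, 165 and 185 CPM in WT with DMSO, a difference of -1.87 ± 0.16 (edgeR adjusted p = 3.27e-06). In sorafenib the difference was -1.35 ± 0.16 (edgeR adjusted p = 5.03e-05). Under the drug CP was at 0.03 ± 0.16 in ARID1B-KO (edgeR adjusted p = 0.885) and fell in WT by -0.49 ± 0.15 (edgeR adjusted p = 0.0247), a call lost without replicate 1 or 3 of WT with DMSO, without replicate 2 or 3 of WT with sorafenib (edgeR adjusted p up to 0.092) or with an offset for transcript length (0.0817). HPX, the other carrier called between genotypes, was lower in ARID1B-KO by -0.55 ± 0.18 in DMSO (edgeR adjusted p = 0.037) and by -0.84 ± 0.17 in sorafenib (edgeR adjusted p = 0.0027). Its DMSO call was lost without any one of the 3 WT libraries with DMSO, without replicate 2 or 3 of ARID1B-KO with DMSO (edgeR adjusted p up to 0.137), without the filter on low counts (0.0541) or with an offset for transcript length (0.0631). CP and SLC40A1 were both lower in ARID1B-KO in either treatment, though the SLC40A1 call in sorafenib was lost in several fits, as given above.

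Of the 11 other genes of iron uptake and reduction, 8 were tested. With sorafenib 2 of 8 fell in ARID1B-KO, close to the 23.7% of all genes called lower there, and 3 of 8 in WT, where 18.0% of all genes were called lower. Between genotypes 1 of 8 was higher in ARID1B-KO in DMSO (14.3% of all genes), and 3 were higher and 1 lower in sorafenib (13.2% and 13.8% of all genes). CYBRD1, the ferric reductase of the gut surface, was the largest of these: 7.46, 8.98 and 6.68 CPM in ARID1B-KO with DMSO, against 0.103, 0.562 and 0.300 CPM in WT with DMSO. It was at 11.9, 8.81 and 8.64 CPM in ARID1B-KO with sorafenib, against 0.0718, 0.144 and 0.251 CPM in WT with sorafenib. The genotype difference was 4.63 ± 0.40 in DMSO and 5.96 ± 0.44 in sorafenib (edgeR adjusted p = 3.68e-06 and 1.02e-06), and its size rests on few reads in WT. STEAP3, the reductase of the transferrin endosome, fell with the drug in ARID1B-KO by -0.70 ± 0.14 (edgeR adjusted p = 0.00156).

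Among 10 genes of iron sensing and ferritin turnover, 8 were tested, and sorafenib called 3 in ARID1B-KO (1 higher, 2 lower) and 5 in WT (3 higher, 2 lower), beside 46.7% and 35.4% of all genes. NCOA4, the receptor that delivers ferritin to lysosomes for breakdown, had 362, 383 and 413 CPM in ARID1B-KO with sorafenib, against 626, 552 and 589 CPM in ARID1B-KO with DMSO. It fell by -0.61 ± 0.09 there (edgeR adjusted p = 1.60e-04) and by -0.63 ± 0.09 in WT (edgeR adjusted p = 1.92e-04), while FTH1 rose. GLRX3, an iron-sulfur chaperone, fell by -0.72 ± 0.12 in ARID1B-KO and by -0.51 ± 0.12 in WT, where the call was lost with an offset for transcript length (adjusted p = 0.108). FBXL5, which marks iron regulatory protein 2 for breakdown, rose by 0.45 ± 0.13 in ARID1B-KO (edgeR adjusted p = 0.0103, and 0.0887 with an offset for transcript length).

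ACO1, which encodes iron regulatory protein 1, rose with sorafenib in WT by 0.54 ± 0.06 (edgeR adjusted p = 3.45e-05) and was higher in ARID1B-KO than in WT in DMSO by 0.32 ± 0.06 (edgeR adjusted p = 0.00293). In ARID1B-KO the drug gave it 0.13 ± 0.06, and the interaction of -0.41 ± 0.09 had an edgeR adjusted p of 0.0531. Between genotypes the list had 2 higher calls of 8 in DMSO and 1 in sorafenib, beside 14.3% and 13.2% of all genes called higher.

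All 15 genes of haem synthesis and breakdown were tested. Sorafenib called 9 in ARID1B-KO (4 higher, 5 lower) and 7 in WT (5 higher, 2 lower). ARID1B-KO against WT called 3 in DMSO, all higher, and 6 in sorafenib (4 higher, 2 lower). The shares of all genes called in these comparisons were 46.7%, 35.4%, 27.8% and 27.0%. HMOX1, the haem oxygenase that frees iron from haem, had 71.7, 84.8 and 75.5 CPM in ARID1B-KO with sorafenib, against 44.2, 49.4 and 52.1 CPM in ARID1B-KO with DMSO. In WT it had 53.6, 50.2 and 55.2 CPM with sorafenib, against 21.7, 19.6 and 19.7 CPM with DMSO. The WT libraries with DMSO were lowest, and ARID1B-KO with DMSO overlapped WT with sorafenib.

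ALAD, the second enzyme of haem synthesis, rose with the drug by 1.24 ± 0.08 in ARID1B-KO and 0.83 ± 0.08 in WT. BLVRB, a biliverdin reductase, rose by 1.12 ± 0.13 in ARID1B-KO and 0.88 ± 0.13 in WT. Each of these was called in both genotypes.

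Of 22 genes of mitochondrial iron and iron-sulfur cluster assembly, sorafenib called 9 in ARID1B-KO (4 higher, 5 lower) and 7 in WT (5 higher, 2 lower), and ARID1B-KO against WT called 6 in DMSO, all higher, and 3 in sorafenib (2 higher, 1 lower). None of these 4 shares exceeded that over all genes (46.7%, 35.4%, 27.8% and 27.0%). ISCU, the scaffold for cluster assembly, had 143, 160 and 171.5 CPM in ARID1B-KO with sorafenib, against 80.3, 89.8 and 95.1 CPM in ARID1B-KO with DMSO. It rose with the drug by 0.84 ± 0.11 in ARID1B-KO and by 0.62 ± 0.11 in WT, and was higher in the knockout by 0.62 ± 0.11 in DMSO and 0.84 ± 0.11 in sorafenib. NFS1, the cysteine desulfurase that supplies its sulfur, rose by 0.45 ± 0.10 and 0.46 ± 0.10 with the drug in ARID1B-KO and WT.

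Among 6 other transcripts with a known iron-responsive element, 5 were tested, with 2 called for sorafenib in ARID1B-KO (1 higher, 1 lower) and 1 in WT, and 1 called in each genotype comparison, each a smaller share than over all genes. EPAS1, which encodes HIF-2α, was higher in the knockout by 0.63 ± 0.10 in DMSO and by 0.54 ± 0.10 in sorafenib, calls lost with an offset for transcript length (adjusted p = 0.103 and 0.0648). Over all 8 further lists, 87 of 98 genes were tested, and 38 were called for sorafenib in ARID1B-KO, 35 for sorafenib in WT, 24 for the knockout in DMSO and 31 for the knockout in sorafenib. Set beside the 46.7%, 35.4%, 27.8% and 27.0% of all genes, these shares were slightly lower, higher, nearly equal and higher in that order, with no test of the lists.

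The genes whose log2 CPM followed each iron gene most closely over the 12 libraries were found among 9989 genes that averaged 5 CPM or more. Pearson's r is given as a description, since the 12 points fall into 4 groups that differ from each other. HAMP was followed most closely by ERG28 (0.985), SLC25A20 (0.984) and TSC22D1 (0.984), and TFR2 by PC (0.994), PGC (0.989) and RNF43 (0.989). The nearest gene to FTH1 was RMND1 (0.990), to TFRC ADPGK (0.981), to SLC40A1 SCN9A (0.981), to SLC11A2 ABCA1 (0.978), to IREB2 ACYP2 (0.954) and to FTL PMF1 (0.942). ERG28 averaged 282 CPM in ARID1B-KO with sorafenib, 123 in ARID1B-KO with DMSO, 184.5 in WT with sorafenib and 74.1 in WT with DMSO, the same order of groups as HAMP.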

How the data were processed

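Polyadenylated RNA of 12 HepG2 libraries was prepared with the KAPA mRNA HyperPrep kit and read from both ends (75 bp each), per the labels' protocols. The authors deposited 1 Salmon table per library with an estimated count, an effective length and TPM for each transcript, per the file headers; TPM was scaled by the authors to a fixed total within each library. The build was GRCh38 and the tools Salmon and DESeq2 1.46.0, per the submitters' processing notes. The Salmon version and any bias or strand setting are not given in the sources used here.

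Gene names and coordinates came from GENCODE release 44, by transcript identifier without its version (165533 of 177456, 93.3%). The rest, with 2.87% to 3.20% of the counts of a library, were left out. Estimated counts were summed per gene and rounded to whole numbers. Total estimated counts were 19739582 to 29398257 per library, and SLC40A1 and BMP6 are the genes of the set whose precision this limits most.

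edgeR 4.0.16 (R 4.3.3) fitted 4 group means over all 12 libraries with TMM factors and filterByExpr, which kept 12821 genes, and tested 5 contrasts with the robust quasi-likelihood F test. The biological coefficient of variation was 0.152. SE was taken from the F statistic, as the size of the log2 fold change over the root of F. The procedure was tested on simulated counts. TPM was used for transcript shares, ratios and order, with exact permutation tests for shares, in Python 3.11.15 with scipy 1.17.1. Figures were drawn with matplotlib 3.10.9. Replicate numbers were not treated as pairs, since the labels do not say that a number marks a shared day or culture.

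Alternatives were DESeq2 1.42.0, its size factors (RLE) in edgeR, no filter, a replicate block, only the groups of a contrast, an offset for transcript length, pseudogene counts added and each library left out. The genes and lists were chosen with earlier results of these data known. From each list the text may name up to 3 called genes per contrast, those with the largest change and at least 5 CPM, and from the lists of hepcidin control and BMP-SMAD targets every called gene; part of them are printed, with the 3 nearest genes by correlation. Some genes of the lists are not reported here.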

Additional observations from a re-analysis of the deposited data

Results flagged for a closer look

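In 2 genes named above the sorafenib response differed between the genotypes by the interaction test of edgeR's quasi-likelihood fit. CEBPA had an interaction of -0.68 ± 0.10 on the log2 scale (adjusted p = 0.0181): the drug raised it by 0.22 ± 0.07 in ARID1B-KO (adjusted p = 0.024) and by 0.91 ± 0.07 in WT, and ARID1B-KO with DMSO was already at 315, 292 and 296 CPM against 152, 146 and 148 CPM in WT with DMSO. That rise in ARID1B-KO was not called in 3 of 12 fits without a library (replicates 2 and 3 of ARID1B-KO with DMSO, replicate 2 of ARID1B-KO with sorafenib; adjusted p up to 0.0643), nor without the filter on low counts (0.0581), with only the groups of the contrast (0.106) or with an offset for transcript length (0.12). HMOX1 had an interaction of -0.71 ± 0.13 (adjusted p = 0.0306), with rises of 0.67 ± 0.09 in ARID1B-KO and 1.38 ± 0.09 in WT. The CEBPA call was lost in 5 of the 12 fits that left out a library (replicates 2 and 3 of both WT groups, and replicate 2 of ARID1B-KO with sorafenib; adjusted p up to 0.0739). The HMOX1 call was lost in 9 of 12, all but those without replicate 1 of WT with DMSO, replicate 1 of ARID1B-KO with DMSO or replicate 3 of ARID1B-KO with sorafenib (adjusted p up to 0.102). With an offset for transcript length neither was called (adjusted p = 0.229 for CEBPA and 0.133 for HMOX1), and with the replicate number as a block HMOX1 was not called (-0.71, adjusted p = 0.0653) while CEBPA was (adjusted p = 0.0494). DESeq2 called both (adjusted p = 1.31e-13 and 8.47e-05). Groups of 3 libraries were not tested for outlying samples.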

How the results depend on the processing

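The 4 sorafenib and genotype calls of HAMP and of TFR2 held in all 19 alternative fits, and no called fold change of an iron gene changed sign in any. With one library left out, the number of iron genes called was 5 to 6 for sorafenib in ARID1B-KO, 3 to 7 for sorafenib in WT, 3 to 4 for ARID1B-KO against WT in DMSO, 2 to 5 in sorafenib and 0 for the interaction. DESeq2 called 5 iron genes for ARID1B-KO against WT in DMSO, in place of 3. Over all genes, the left-out fits called 5143 to 6076, 3587 to 4762, 2529 to 3851, 2479 to 3596 and 5 to 138 genes in the same order of comparisons, in place of 5982, 4543, 3563, 3463 and 107. An offset for transcript length called 2867 genes for sorafenib in WT, 2189 and 2046 between genotypes in DMSO and sorafenib, and 2 for the interaction. DESeq2 called 584 genes for the interaction. The cause of these differences was not tested.

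A fit with the replicate number as a block called 19 genes for the interaction, and it called TFRC for sorafenib in ARID1B-KO (-0.39, adjusted p = 0.0443), lost IREB2 for sorafenib in WT (adjusted p = 0.0541) and changed no other call of an iron gene. Same-numbered libraries deviated from their group means with correlations of -0.163 to 0.184, and 4 of 12 libraries correlated best with one of their own number. Between drug and vehicle in WT, same-numbered libraries gave 0.084, 0.078 and 0.05, and differently numbered ones -0.079 to 0.008. In ARID1B-KO same-numbered libraries gave 0.089, -0.021 and 0.184, and differently numbered ones -0.169 to 0.099. These small correlations do not settle whether the number pairs the samples, and the labels do not say. SLC11A2 for sorafenib in WT was not called with RLE size factors (adjusted p = 0.0527) or without a filter (0.0568). Depth limits BMP6, SLC40A1 and CYBRD1 in WT most.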
